A study of Mus musculus with 8 samples.

Results

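The EGF receptor system was followed in livers with diet-induced steatohepatitis through 10 genes of the 54309 in the count table. They comprised 3 receptor genes (Egfr, Erbb2 and Erbb3), 5 ligand genes (Egf, Areg, Hbegf, Btc and Tgfa) and 2 inhibitor genes (Lrig1 and Errfi1). The set was assembled by name around Egfr, which was picked because its level differed strongly between these same libraries. The difference between treatments is therefore given for all 10 as a description, without a p-value. All 10 were matched by gene identifier and entered the fit across 15472 genes, but Egf passed the filter on low counts through its higher group. That filter asked for 0.19 CPM in 4 libraries, a level that Egf reached in 4 antiCD47 and 2 IgG libraries.

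Male C57BL/6 mice had eaten a diet of fructose, palmitate and cholesterol over 16 weeks, which produces fatty, inflamed and scarred livers. From week 8 to week 16 they received intraperitoneal injections (200 µg per mouse) of either IgG or anti-CD47. CD47 is the cell surface signal that holds back engulfment by macrophages through their receptor SIRPα. The design lists 7 to 8 mice per treatment, and 4 polyA libraries of each were sequenced, called IgG 1 to 4 and antiCD47 1 to 4. All 8 come from whole livers of mice on the diet, and livers of mice without the diet or without an injected antibody were not analysed here. By its title, the study concerns clearance of necroptotic hepatocytes and fibrosis when this axis is blocked.

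Total counts ran from 43691472 to 55477484 per library, and levels are given as CPM (counts scaled to a common library size after TMM correction). Albumin stood at 41018 to 52171 CPM over the 8 libraries, high as in liver. Across the whole fit, 1678 genes (10.8%) passed an adjusted p of 0.05 by the edgeR quasi-likelihood test, 842 higher and 836 lower in antiCD47. Scaling by library totals alone changed that split to 428 and 3153, with the median log2 fold change of all genes at -0.19 in place of -0.01. The split was 634 and 969 under upper quartile scaling. Nothing in the labels says that the libraries come from separate animals, so p-values measure the spread between these libraries.

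EGF receptor, encoded by Egfr, is a tyrosine kinase that dimerizes with itself or with ERBB2 or ERBB3 when a ligand binds, and signals through adaptors to the RAS-ERK and PI3K pathways. ERBB2 has no known ligand of its own, and ERBB3 has little kinase activity and binds neuregulins. The ligands are made as membrane proteins and released by proteases, and LRIG1 and MIG6, the product of Errfi1, restrain the active receptors. In liver, hepatocytes carry much EGF receptor, and the pathway is known for its part in regeneration after injury.

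Of the 10 genes, 8 had an entry in the RefSeq promoter table (build GRCm38.p6), and the 250 bases before the start are shown for a pair of them. Egfr is shown as the gene on which the set turns, and Areg as the ligand gene with the widest spread between libraries. The Egfr window lies at chr11:16751953-16752202 and the Areg window at chr5:91139349-91139598, both on the plus strand. Capitals mark matches, on either strand, to TCCTCC, to the GC box GGGCGG, to the TATA box TATAAA and to the cyclic AMP response element TGACGTCA, and matches that overlap run together.
Egfr: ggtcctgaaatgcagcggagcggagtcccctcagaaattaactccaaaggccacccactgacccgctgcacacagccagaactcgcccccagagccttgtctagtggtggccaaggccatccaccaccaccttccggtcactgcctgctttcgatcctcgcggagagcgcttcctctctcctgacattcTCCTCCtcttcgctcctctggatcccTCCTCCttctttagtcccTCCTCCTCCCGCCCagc
Areg: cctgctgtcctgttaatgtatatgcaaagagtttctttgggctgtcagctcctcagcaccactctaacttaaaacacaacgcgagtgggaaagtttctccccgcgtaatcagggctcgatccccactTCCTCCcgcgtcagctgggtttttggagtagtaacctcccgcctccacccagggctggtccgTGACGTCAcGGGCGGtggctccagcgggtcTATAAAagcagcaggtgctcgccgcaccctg
The Egfr window held TCCTCC at 4 positions and 1 GC box, and neither TATAAA nor TGACGTCA. The Areg window held each of the 4 motifs at 1 position. Over 32817 windows of this length 29.2% held TCCTCC, 32.7% the GC box, 12.4% TATAAA and 1.55% TGACGTCA. GC content was 60.8% for Egfr and 57.2% for Areg, with a median of 52.4% over all windows. These matches describe letters only.

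Egfr was higher in all 4 antiCD47 libraries than in any IgG library. It stood at 103, 172, 103 and 139 CPM in IgG 1 to 4 and at 513, 652, 475 and 260.0 CPM in antiCD47 1 to 4. The groups did not overlap, and antiCD47 4 was the lowest of its group and IgG 2 the highest of the other. The means were 129 ± 32.9 and 475 ± 162 CPM (SD, n = 4 each), a ratio of 3.67 and a log2 fold change of 1.88 ± 0.27 (SE). With each library left out in turn it was 1.69 to 2.08. In bulk liver, a change in the number of cells of a type and a change in the RNA per cell cannot be told apart.

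The other receptor genes overlapped between treatments. Erbb3, the kinase-impaired partner, stood at 124, 118, 112 and 112 CPM in IgG and at 114, 124, 135 and 143 CPM in antiCD47. The groups overlapped, with 2 antiCD47 libraries above the IgG range. The means were 116 ± 5.86 and 129 ± 12.3 CPM (SD, n = 4 each) and the log2 fold change 0.15 ± 0.08 (SE), which became -0.04 with scaling by library totals. Erbb2 was expressed at a far lower level, 3.15, 1.67, 2.35 and 3.23 CPM in IgG and 1.69, 1.47, 1.90 and 2.29 CPM in antiCD47. Its log2 fold change was -0.50 ± 0.23 (SE), and IgG 2 lay inside the antiCD47 range. Mien1 overlaps Erbb2 on the opposite strand and Slc25a26 overlaps Lrig1 in the annotation. Sources used here do not state whether counting used strand, and without it the reads of such partners cannot be told apart.

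**Figure D1:**
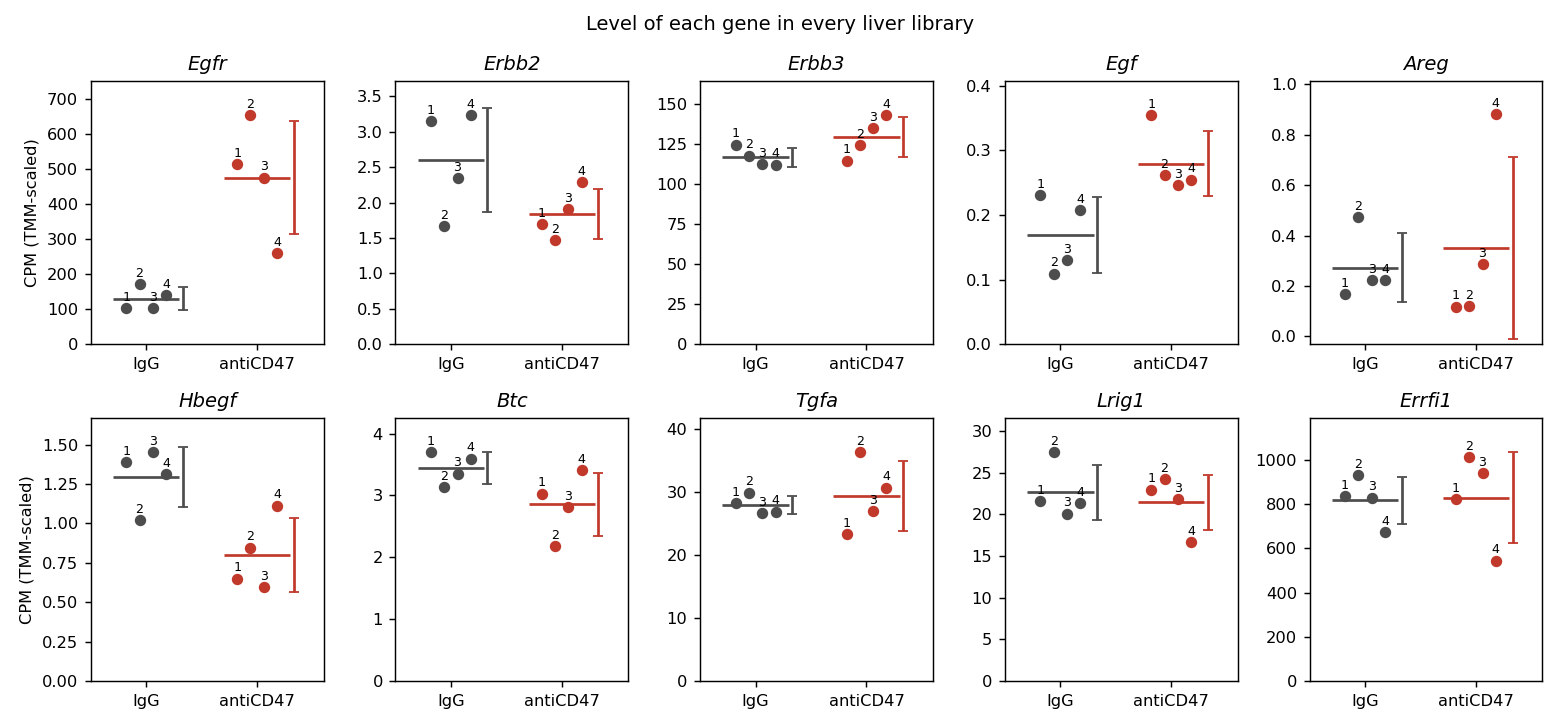
CPM of each of the 10 genes on linear axes, with 1 point per library labelled by its number, the mean as a line and the SD as a bar (n = 4 per treatment). The antiCD47 points of Egfr (260.0 to 652 CPM) all lie above the IgG points (103 to 172 CPM), and in 8 of the 9 other panels the groups overlap.

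Tgfa, transforming growth factor alpha, was the most abundant of the ligand transcripts and nearly level between treatments. It was at 28.2, 29.9, 26.6 and 26.8 CPM in IgG and at 23.2, 36.3, 26.9 and 30.7 CPM in antiCD47, with antiCD47 libraries on both sides of the IgG range. The log2 fold change of 0.07 ± 0.12 (SE) became -0.12 with scaling by library totals. Btc, betacellulin, had 3.70, 3.13, 3.35 and 3.60 CPM in IgG against 3.03, 2.17, 2.81 and 3.40 CPM in antiCD47. Here 3 antiCD47 libraries were below the IgG range (log2 -0.27 ± 0.15, SE). Hbegf, the heparin-binding ligand, was at 1.39, 1.02, 1.45 and 1.31 CPM in IgG and at 0.649, 0.846, 0.594 and 1.11 CPM in antiCD47. Again 3 antiCD47 libraries were below every IgG library, and antiCD47 4 was inside their range. The Hbegf log2 fold change was -0.69 ± 0.24 (SE), and -0.89 without antiCD47 4.

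Areg and Egf were near the limit of detection. Areg, amphiregulin, had 6 to 38 counts per library, with 0.168, 0.473, 0.223 and 0.225 CPM in IgG and 0.118, 0.121, 0.287 and 0.880 CPM in antiCD47. The antiCD47 libraries held both the lowest and the highest values, and the log2 fold change of 0.33 ± 0.65 (SE) became -0.63 without antiCD47 4. Egf itself, which is made mainly in kidney and salivary gland, had 6 to 18 counts per library. Its level was 0.231, 0.109, 0.130 and 0.207 CPM in IgG and 0.354, 0.262, 0.246 and 0.255 CPM in antiCD47. The groups did not overlap (log2 0.72 ± 0.33, SE), but the lowest antiCD47 and highest IgG libraries were 12 and 11 counts, a difference within counting error, and the filter had kept the gene through antiCD47. Groups without overlap were found for 2 of the 10 genes, Egfr and Egf, both in the higher direction. Of all tested genes 19.6% had such groups, 9.51% higher and 10.1% lower.

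The inhibitors differed between treatments by less than the spread between libraries. Errfi1 was the most abundant of the 10 genes, at 836, 932, 830.3 and 674 CPM in IgG and at 824, 1014, 939.8 and 545 CPM in antiCD47. AntiCD47 libraries lay inside, above and below the IgG range, and the log2 fold change was 0.02 ± 0.18 (SE), or -0.17 with scaling by library totals and -0.04 with upper quartile scaling. Lrig1, a membrane protein that promotes removal of ERBB receptors, was at 21.6, 27.5, 20.1 and 21.3 CPM in IgG and at 23.0, 24.2, 21.8 and 16.7 CPM in antiCD47. Only antiCD47 4 lay outside the IgG range, and the log2 fold change was -0.08 ± 0.13 (SE).

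In all, 1 of the 10 genes (Egfr) was past the threshold, against 10.8% of all genes tested 5.44% in the higher direction and 5.4% in the lower. Since Egfr was picked on this contrast, the count carries no weight. It was 0 without IgG 4 or antiCD47 3, where only 2 and 21 of all genes passed, and 2 (with Hbegf) without antiCD47 4. The other 9 included 0 past the threshold by edgeR and 1 at an unadjusted p under 0.05. Over all 15472 tested genes, 5032 were under that unadjusted p. Among these 9 DESeq2 called 1 (Hbegf) and limma voom 0, where over the whole table they called 3174 and 1751. The 10 had a median log2 fold change of 0.05, beside -0.01 over all tested genes. The authors' deposited table gave the same sign as the edgeR fit for all 10 and listed 1 of them, Egfr, under an adjusted p of 0.05, as it did 18.4% of its genes. The log2 fold change of Egfr in the authors' deposited table was 1.58 with a standard error of 0.22, while DESeq2 run here gave 1.88 ± 0.25 (SE). All but Errfi1 (0.02 in both) were smaller in size there than in edgeR, such as Egf (0.16 against 0.72). The reason was not tested.

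Levels per kilobase of exon put the receptors on 1 scale. That scale depends on the exon length used, 11058 bases for Egfr and 6016 for Erbb3. In IgG, Erbb3 stood above Egfr in every library, at 18.6 to 20.7 against 9.34 to 15.5 CPM per kilobase, while in antiCD47 Egfr reached 23.5 to 59.0 and Erbb3 19.0 to 23.7. The ratio of Egfr to Erbb3 on this scale was 0.452, 0.795, 0.502 and 0.675 in IgG 1 to 4 and 2.44, 2.86, 1.92 and 0.991 in antiCD47 1 to 4. On this scale antiCD47 4 was thus at near equal levels of both genes, and the other 3 had more Egfr. In CPM without length, Egfr was above Erbb3 in IgG 2 (172 against 118) and IgG 4 (139 against 112). It was below Erbb3 in IgG 1 (103 against 124) and IgG 3 (103 against 112). In antiCD47 4 the CPM of Egfr was 260.0 against 143 for Erbb3. Of the 4 receptor transcripts summed per length, Egfr made up 29.9% to 43.2% in IgG and 49.1% to 73.5% in antiCD47, and the sum went from 29.0 to 36.0 up to 47.9 to 80.2 CPM per kilobase. Erbb2 and Erbb4 together stayed a small part, with no library above 2.07% for either gene.

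By mean level per length the 5 ligands stood in the order Tgfa, Btc, Hbegf, Areg, Egf in both treatments. Tgfa made up 71.5% to 75.2% of the summed ligand level in IgG and 71.8% to 83.5% in antiCD47, where the sum also takes in Ereg and Epgn. That sum was 8.00 to 8.77 CPM per kilobase in IgG and 6.78 to 9.61 in antiCD47, ranges that overlap. Of the 10 genes, Errfi1 was highest in every library, and Errfi1 exceeded Egfr 16.6 to 27.7 times in IgG and 5.32 to 7.17 times in antiCD47. Per length, the order over all 10 in IgG was Errfi1, Erbb3, Egfr, Tgfa, Lrig1, Btc, Hbegf, Erbb2, Areg and Egf. The neighbours Hbegf and Erbb2, and Erbb2 and Areg, overlapped in their libraries and the rest did not. In antiCD47 Egfr took the second place above Erbb3, with overlapping libraries, and Erbb2 came before Hbegf, whose libraries overlapped those of Erbb2 and Areg.

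**Figure D2:**
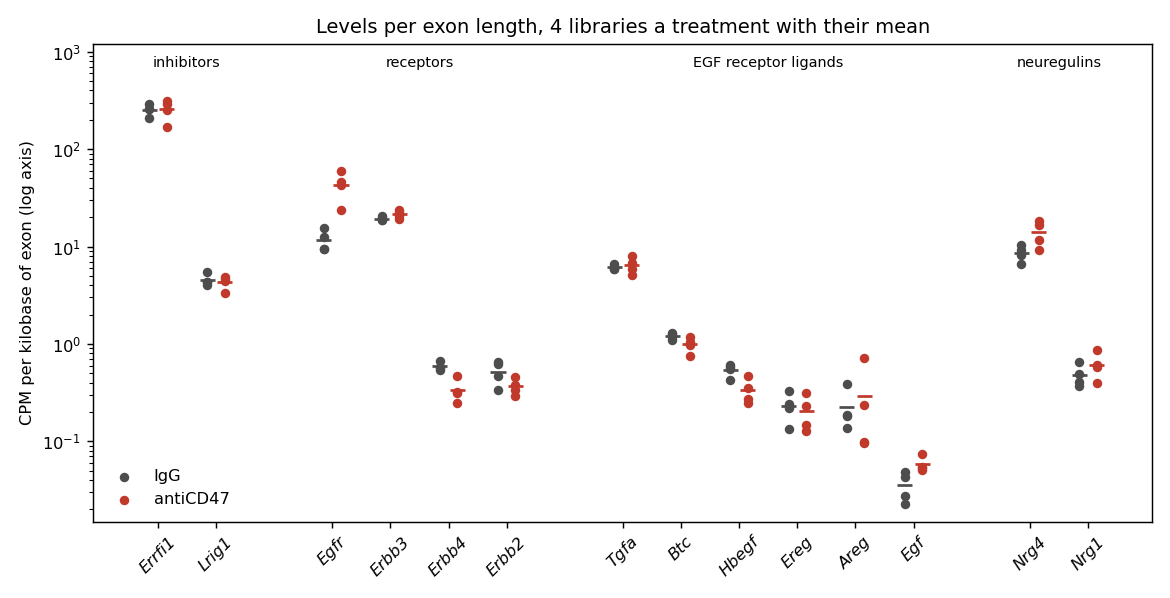
CPM per kilobase of exon on a log axis for inhibitors, receptors, EGF receptor ligands and neuregulins, with 4 libraries per treatment as points and their mean as a line. Egfr lies below Erbb3 in IgG (9.34 to 15.5 against 18.6 to 20.7) and spans 23.5 to 59.0 in antiCD47, while the 5 ligands among the 10 genes keep the order of their means.

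Variation between libraries of the same treatment was also read, in the same 8 libraries on which Egfr was picked. Deviations from the treatment mean on the log2 CPM scale were compared over the 8 libraries, as a description. Lrig1 deviated with Egfr (Pearson r = 0.93, Spearman rho = 0.86), and r was 0.86 without antiCD47 2 and antiCD47 4, which lay farthest from the median of Egfr. Each r without these 2 libraries kept the deviations from treatment means that include them. The libraries IgG 2 and antiCD47 1, 2 and 3 were above their group means in both genes, and IgG 1, IgG 3 and antiCD47 4 below in both. For Errfi1 r was 0.76 (rho = 0.55), but 0.16 without those 2 libraries, so that relation rests on them. Several genes deviated against Egfr, Btc with r = -0.80, Hbegf with -0.70, Erbb2 with -0.69 and Erbb3 with -0.59. Without the same 2 libraries r was -0.43 for Btc, -0.79 for Hbegf, -0.58 for Erbb2 and -0.25 for Erbb3. For Areg r turned from -0.53 to 0.47, and for Tgfa (0.16) and Egf (-0.16) it was small. AntiCD47 4 had the lowest Egfr, Lrig1 and Errfi1 and the highest Hbegf, Btc, Areg, Erbb2 and Erbb3 of its group. Libraries share depth and cell makeup across genes, and 59 of 15471 other genes had an r of 0.9 or more with Egfr.

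**Figure D3:**
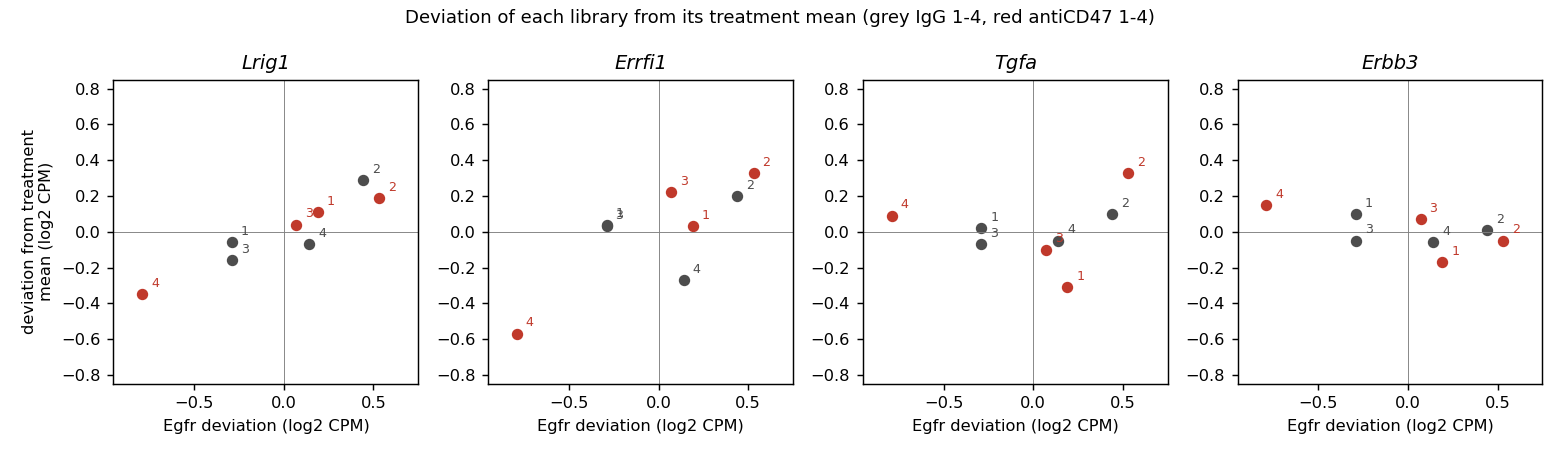
Deviation of Lrig1, Errfi1, Tgfa and Erbb3 from their treatment mean against that of Egfr (log2 CPM, 1 point per library, numbered, grey for IgG and red for antiCD47). Lrig1 runs with Egfr over the 8 libraries (r = 0.93), while for Errfi1 (0.76) and Erbb3 (-0.59) the slope is set largely by antiCD47 2 and antiCD47 4 (r = 0.16 and -0.25 without them). The deviations were not taken anew without those libraries.

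By the same measure the genes most like Egfr were Tada1 (r = 0.962), Mrpl24 (0.958), Stx12 (0.956), Pip4p1 (0.953) and Sympk (0.953), each over 8 libraries. Tada1 encodes a subunit of a chromatin-modifying complex, Mrpl24 a mitochondrial ribosomal protein and Sympk a factor of messenger RNA 3′ end processing. Their deviations were small, within -0.19 to 0.15 log2 CPM, where those of Egfr ran from -0.79 to 0.53. In each of the 5, antiCD47 2 was the highest and antiCD47 4 the lowest, and r without those libraries was not computed for them. Between treatments these 5 genes had log2 fold changes of -0.01 to 0.17, and none was past the threshold (edgeR adjusted p = 0.112 to 0.982).

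The remaining receptor and ligand genes were read from a list of 99 further pathway genes. Erbb4, a neuregulin receptor, was at 7.02, 6.87, 6.57 and 8.14 CPM in IgG and at 5.71, 3.89, 3.79 and 3.01 CPM in antiCD47, without overlap. Of all tested genes 10.1% had such groups in the lower direction. Erbb4 was lower in antiCD47 (log2 -0.80 ± 0.18, SE; edgeR adjusted p = 0.0282). Nrg4, a neuregulin that binds ERBB4, had 20.3, 22.7, 17.9 and 14.6 CPM in IgG and 25.9, 36.4, 40.3 and 20.5 CPM in antiCD47. Its log2 fold change of 0.71 ± 0.21 (SE) missed the threshold (edgeR adjusted p = 0.0583; 0.00931 to 0.149 over the alternatives). It passed in 5 of 18 other fits, among them those without antiCD47 1 (0.0371) and without antiCD47 4 (0.0281). Nrg1 (log2 0.34 ± 0.25, adjusted p = 0.367) and Ereg (-0.18 ± 0.35, adjusted p = 0.747) did not pass in edgeR. Epgn, Nrg2 and Nrg3 had at most 4 counts in any library and were not tested.

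Of the 99 pathway genes 95 were tested, and 6 rose and 9 fell (15.8%, beside 10.8% of all genes). Their median log2 fold change was 0.05, and 80 did not pass. Scaling by library totals gave 2 higher and 24 lower, upper quartile scaling 3 and 10. All 15 kept their direction in the 18 other fits. All 15 lost their call without IgG 3, IgG 4 or antiCD47 3 (adjusted p = 0.0508 to 0.132), and without IgG 1 only Src passed. Without antiCD47 2, 5 passed, and without antiCD47 1, 35 did. The list was chosen by function with earlier results of these data known.

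Of the 23 receptor turnover genes 3 rose, a share near the 10.8% of all genes called in either direction. Ptpn1, a phosphatase that removes phosphate from receptor tyrosine kinases, went from 28.2, 50.1, 29.1 and 31.4 CPM in IgG to 52.6, 106, 92.1 and 55.7 CPM in antiCD47. The groups did not overlap, but IgG 2 lay close below antiCD47 1 (log2 1.14 ± 0.26, SE; edgeR adjusted p = 0.0302). Ptprj, a receptor-type phosphatase, rose (log2 0.32 ± 0.08; edgeR adjusted p = 0.0422). Eps15, an endocytic adaptor of the EGF receptor, rose as well (log2 0.30 ± 0.06; edgeR adjusted p = 0.0246), and the other 20 did not pass. Of 9 tested ligand-shedding genes 1 passed (11.1%, beside 10.8% of all genes). It was Adam9, which rose by 0.47 ± 0.11, from 101 ± 3.08 to 140.5 ± 23.2 CPM (SD, n = 4; edgeR adjusted p = 0.0288).

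Adaptors moved both ways, and the kinases named here fell. Of 24 adaptor and effector genes 5 passed (20.8%, beside 10.8% of all genes). Grb2, the adaptor that brings SOS to the receptor, rose by 0.35 ± 0.09. Src (-0.73 ± 0.12), Grb10 (-0.79 ± 0.17), Grb14 (-0.56 ± 0.13) and Nck2 (-0.50 ± 0.14) fell (edgeR adjusted p = 0.0160 to 0.0496 over these 5). Of 15 genes of the RAS to ERK cascade, 2 fell, where 5.4% of all genes tested were called lower. They were Mapk3, which encodes ERK1 (-0.45 ± 0.11), and Rps6ka1, an ERK-activated kinase (-0.50 ± 0.13; edgeR adjusted p = 0.0371 and 0.0381). The median log2 fold change of these 15 genes was 0.1, beside -0.01 over all tested genes. Of the 15 genes 10 were above 0, as were 7583 of all 15472 tested. With scaling by library totals Grb2, Eps15 and Ptprj stayed above 0 at 0.11 to 0.16 but did not pass. With upper quartile scaling Grb2 and Ptprj did not pass either (adjusted p = 0.0564 and 0.0540).

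Of 20 early response and growth genes downstream of the receptor 2 fell, a share near the 10.8% of all genes called. Phlda1, a pleckstrin homology-like domain gene induced by growth factors, was at 60.7, 41.5, 84.4 and 102 CPM in IgG and at 35.2, 19.8, 16.4 and 21.8 CPM in antiCD47, without overlap. Its log2 fold change was -1.63 ± 0.30 (SE; edgeR adjusted p = 0.0197). Ccnd1, cyclin D1, had 131, 129, 103 and 140.3 CPM in IgG and 82.8, 67.5, 62.7 and 109 CPM in antiCD47, and fell (log2 -0.65 ± 0.17, SE; edgeR adjusted p = 0.0413). Only antiCD47 4 reached into the IgG range. The list median was -0.32, beside -0.01 over all tested genes. With scaling by library totals the median over all tested genes was -0.19, and the list median under that scaling was not computed. Of the 20 genes 15 were below 0, as were 7889 of all 15472 tested, and 18 did not pass.

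**Figure D4:**
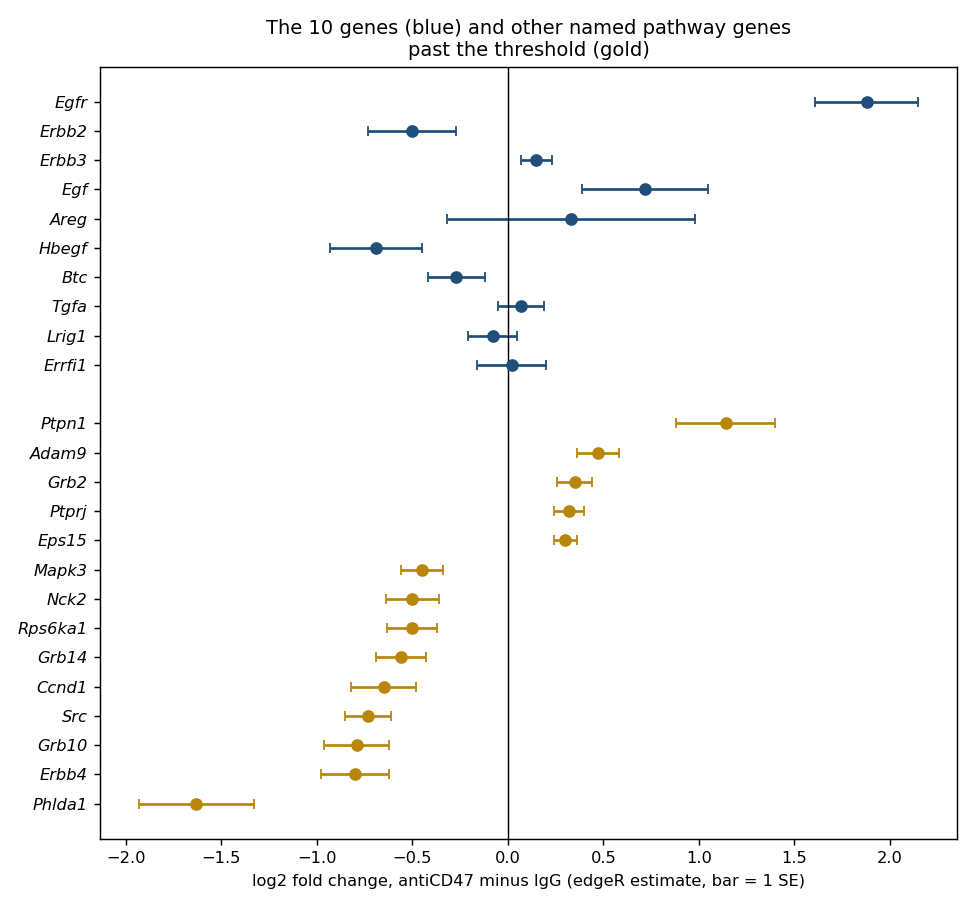
edgeR log2 fold change, antiCD47 minus IgG, with a bar of 1 SE, for the 10 genes (blue) and the other pathway genes past the threshold that are named here (gold). Egfr stands at 1.88, and Phlda1 lies farthest below 0 at -1.63.

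Markers of several cell types moved with the treatments, and their part in these results was not tested. Markers counted below as higher or lower passed an adjusted p of 0.05 in edgeR. Of all tested genes 10.8% did so, 5.44% higher and 5.4% lower. Summed hepatocyte markers (10 genes, 1 of them higher) were at 62172 to 67559 CPM in IgG and 65405 to 77899 CPM in antiCD47, ranges that overlap. Of these 10 genes 8 had a log2 fold change above 0, and albumin made up most of the sum. Of 10 bile duct markers 9 were lower by that call. All 10 had antiCD47 libraries below every IgG library, as had 10.1% of all tested genes. Their sums were 448 to 615 CPM in IgG and 121 to 367 CPM in antiCD47, mostly from Spp1 (358 to 497 and 78.4 to 301 CPM). Of 12 stellate cell and fibroblast markers 5 were lower (sums of 941 to 1339 against 640.2 to 859 CPM). Within that list only the matrix genes Col1a1, Col1a2, Col3a1, Lum and Mgp had IgG and antiCD47 libraries without overlap. The rest overlapped, and 3 of the 12 had a log2 fold change above 0. Reln was at 56.0 to 72.8 CPM in IgG and 71.8 to 84.2 CPM in antiCD47. Markers of Kupffer cells (4 of 9), neutrophils (6 of 6 tested) and red cells and platelets (5 of 8) were higher, at 615 to 889, 14.4 to 32.5 and 856 to 1496 CPM in antiCD47 against 384 to 613, 6.19 to 8.68 and 316 to 467 CPM in IgG. A log2 fold change above 0 was found for all 9 Kupffer cell markers and for 7 of the 8 of red cells and platelets. Sinusoidal endothelium (171 to 237 against 185 to 229 CPM), T and innate lymphoid cells (3.69 to 14.7 against 3.44 to 9.10) and basophils and mast cells (3.73 to 4.58 against 3.03 to 6.77) overlapped, and B and plasma cells were at 3.99 to 6.65 against 7.15 to 10.7 CPM. The basophil and mast cell sum was mostly Kit (3.69 to 4.46 against 2.81 to 6.50 CPM), and 1 of those 6 markers was tested. No marker was at 0 in all 8 libraries. Per library, antiCD47 4 had the lowest hepatocyte sum of its group as well as the lowest Egfr, and antiCD47 2 the highest of both. In IgG the library highest in Egfr, IgG 2, was the third in its hepatocyte sum.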

How the data were processed

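PolyA RNA of whole liver was sequenced from 8 TruSeq libraries, per the labels' protocols. The deposited table holds whole-number counts per Ensembl gene without normalization. The submitters' processing notes name Salmon 1.3.0, DESeq2 1.32.0 and the build GRCm39, without roles. The authors' deposited comparison table gives, per the file headers, a mean normalized count (a signal over all libraries), a log2 fold change with its error, p-values before and after adjustment, and a rank score. Its reference group is not stated.

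Columns were matched to samples by title, with 0 columns unused. Symbols came from GENCODE M21 for 51484 genes and from the authors' table for 17. Genes were filtered with filterByExpr and scaled by TMM in edgeR 4.0.16 (R 4.3.3), then tested two-sided by glmQLFTest, and p-values were adjusted by Benjamini-Hochberg over 15472 genes. The log2 CPM used a prior count of 2. Exon length is the union of exons of protein-coding transcripts in GENCODE M21, an older build, used for lengths only. limma 3.58.1 and DESeq2 1.42.0 served as alternatives, and the fits were tested on simulated data. No libraries of a group agreed within sampling noise (chi-square per degree of freedom of at least 26.0).

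The members, lists and rule for named genes were chosen with earlier results of these data known. The rule names the 10 genes, receptors and ligands outside them, pathway genes past the threshold (up to 4 a direction in each sub-list) and the 5 genes most like Egfr. A result that the rule would name is not reported here, though the counts include it.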

Additional observations from a re-analysis of the deposited data

Results flagged for a closer look

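In 3 of 56 groups of 4 libraries, 1 library lay far from the other 3 (by Dixon's ratio of the gap to the whole range), and chance alone gives about 5% of groups. Egf in antiCD47 1 was at 0.354 CPM, with the other antiCD47 libraries at 0.246 to 0.262. Src in IgG 4 was at 7.40 CPM, with the others at 6.24 to 6.40. Ptpn1 in IgG 2 was at 50.1 CPM, with the others at 28.2 to 31.4.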

How the results depend on the processing

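The log2 fold change of Egfr lay between 1.68 and 2.08 over 18 other fits, from 1.69 to 2.08 when each library was left out. It was 1.84 with the replicate number as a block. The number of the 10 genes past the threshold was 2 at an adjusted p of 0.1, with library totals and by DESeq2, and 0 to 2 without single libraries. Of the 95 pathway genes 32 passed at an adjusted p of 0.1, 26 with library totals, 27 by DESeq2 and 0 to 35 without single libraries. Over the whole table these counts were 3574, 3581, 3174 and 2 to 3630, and 1090 without IgG 2 and antiCD47 2 together, which was chosen after seeing the data. Ereg (log2 -0.18) changed sign to 0.04 without IgG 4, in a range of -0.46 to 0.04 over single libraries. Called pathway genes kept their direction in 270 of 270 alternative fits and their call in 172. Same-numbered libraries share only a number: the correlation of their deviations was -0.02 to 0.16, over 0.1 in 1 of 4 pairs, not every library correlated best with its own number, and with that block 2425 genes and 22 pathway genes passed. Of the single genes the block changed the calls of Nrg4 (edgeR adjusted p = 0.0238) and Nck2 (0.0565). The cause of these changes was not tested. Depth limits Egf and Areg, at 6 to 38 counts per library.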
